A study of Zea mays with 45 samples.

Results

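The maize genes asr1, mlip15 and dbf1, tied to abscisic acid, cold and drought, are described here in leaves of 6 maize lines that differed in ultraviolet-B (UV-B) exposure. They were picked by name, as the probes whose annotation carries one of these symbols or the Entrez gene behind it, and they are 3 of the 329 genes named on the arrays. Each gene had 1 probe in each of the 2 deposited tables, and each probe was spotted 3 times. The rule that picked them used names, not measured ratios, but it was set with earlier results of these data known.

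Abscisic acid is the hormone by which a drying or chilled plant closes its stomata and switches on protective genes. The product of asr1 (abscisic acid, stress and ripening) belongs to a family of small, very hydrophilic plant proteins that accumulate when water is short. The gene mlip15 encodes a basic leucine zipper (bZIP) transcription factor, described in maize as a gene that responds to low temperature. The gene dbf1 encodes a maize factor of the AP2/ERF family that binds the drought-responsive element of the abscisic acid-induced gene rab17. UV-B is the short-wave part of sunlight that damages DNA and photosystems.

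Spotted cDNA arrays held pairs of leaf RNAs labelled in 2 channels. The plants were the inbred W23, in part as its stock with the b and pl alleles, and the landraces Arrocillo, Cacahuacintle, Conico, Confite and Mishca, grown outdoors in the field. In the solar comparison, leaves of a line under a cellulose acetate filter, which passes most sunlight, were paired with leaves of that line under a polyester filter that absorbs UV-B, and in the supplemental comparison leaves under added UV-B lamps were paired with leaves under solar UV-B. A further set of arrays paired each landrace with W23, both with UV-B or both without, for 8 h in the case of Confite and Mishca. The 45 deposited columns comprised 13 of the solar, 12 of the supplemental and 20 of the landrace kind. No label states that arrays of a line came from separate plants, so p-values measure the spread between arrays, which may be technical. Variances were moderated, so this spread is in part pooled over all probes of a fit. In whole leaves, fewer cells of a type and less RNA per cell cannot be told apart, and the arrays give ratios only, so that levels of leaf markers could not be checked.

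Some columns stood apart before any result. In 8 cases a column repeated another up to a constant although the labels give opposite channel orders, and each such column was counted once. Where ratios are read in channel order instead of as deposited, such a column took the order of its first label. Its side in that reading therefore rests on that choice. A W23 column of the solar comparison, number 3 by its labels' order, lay within an SD of 0.032 of the mean of the other W23 columns and was left out, which leaves 36 distinct arrays: 9 solar, 8 supplemental, 12 pairing W23 with Arrocillo, Cacahuacintle or Conico, which form the smaller deposited table, and 7 pairing it with Confite or Mishca, which stand with the UV-B arrays in the larger table. The supplemental Mishca array had an SD of 0.658 over its probes, beside a median of 0.325 for supplemental columns. The supplemental means and line differences of the 3 genes are given with and without it. Supplemental values of other genes and markers, and the likeness to other genes, are given only with it. Among the arrays beside Confite and Mishca, 72.6% of spots were blank on the second Confite array without UV-B. On the first Confite array with UV-B 68.0% were blank, on the Mishca array without UV-B 42.5%, and on the first Mishca array with UV-B 44.2%. In the smaller table the share was at most 5.15%. Channels are labelled by RNA, but the numerator of the ratio is not given in the sources used here, so values are given as the positive or negative side of the deposited log2 ratio, and no statement is made of which leaf had more RNA. Arrays of opposite channel order in a group correlated over all probes at r from -0.24 to 0.44 in the solar comparison and at -0.11 and -0.07 in the supplemental comparison.

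Spots of a probe were averaged, each array was centred on its median, and a linear model held a coefficient for each line and a channel term (limma, moderated variances). A probe was called at a Benjamini-Hochberg adjusted p under 0.05 over all probes of the comparison. In the solar comparison 2 of the 3 genes were called, asr1 on the positive and dbf1 on the negative side, where 35% of the 4239 tested probes were called, 16.9% positive and 18.1% negative. In the supplemental comparison 2 of 3 were called, mlip15 and dbf1, both positive, where 31.7% of 4744 probes were called and 15.5% on the positive side. For these 3 landraces beside W23, 1 of 3 genes was called, asr1 on the negative side, where 25.6% of 5353 probes were called and 12.1% on the negative side. With that many probes called in these fits, a call of 1 or 2 genes out of 3 does not set them apart from the array.

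**Figure D1:**
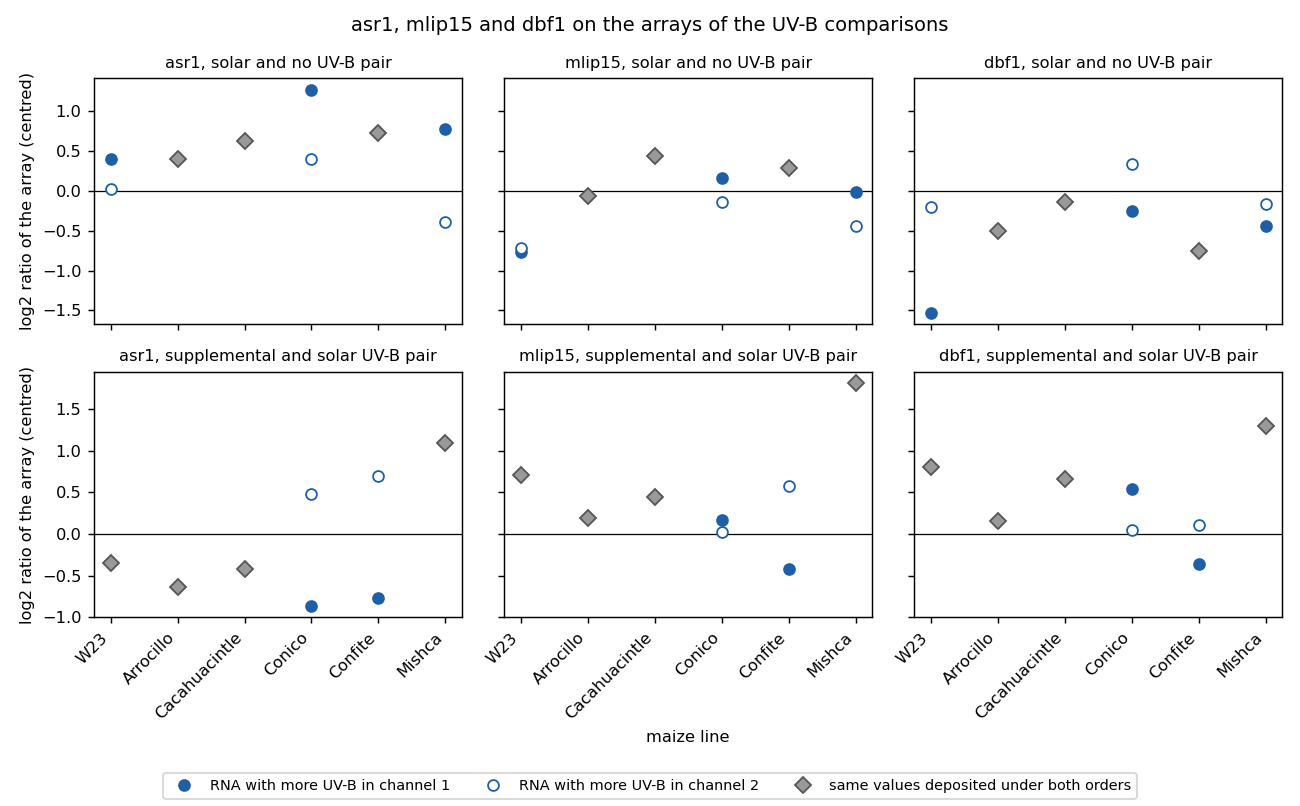
Centred log2 ratio (y axis) of asr1, mlip15 and dbf1 on each distinct array of the solar (top) and supplemental (bottom) comparisons, by maize line (x axis); filled circles have the RNA with more UV-B in channel 1, open circles in channel 2, and grey diamonds are columns deposited under both orders. With solar UV-B asr1 was positive on 8 of 9 arrays and dbf1 negative on 8 of 9, while in the supplemental comparison the asr1 points of Confite and Conico split by channel order and the Mishca diamonds lie highest.

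For asr1, solar UV-B gave positive ratios in all 6 lines. The arrays of both orders stood at 1.27 and 0.40 in Conico, at 0.77 and -0.40 in Mishca, and at 0.40 and 0.02 in W23, the array with the sun-exposed RNA in channel 1 first. The single distinct arrays stood at 0.40 in Arrocillo, 0.62 in Cacahuacintle and 0.73 in Confite. All but the second Mishca array were positive, and in each of the 3 lines with both orders the channel 1 array was the higher. The share of probes below asr1 ran from 8.04% on that Mishca array to 99.7% on the higher Conico array.

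The mean of asr1 over the 6 lines was 0.50 on the log2 scale (SE 0.07, 95% confidence interval 0.33 to 0.66, n = 9 arrays), a ratio of 1.41, with an adjusted p of 0.00825 (limma). With ratios as deposited, the fitted value by line was 0.83 in Conico and was called there (adjusted p = 0.0352), where 4.67% of probes were called. The fitted values of the others, none of them called, followed in the order Confite, Cacahuacintle, Arrocillo, W23 and Mishca, from 0.73 down to 0.19. This order depends on how the ratio is read. In channel order Conico was at -0.44 (adjusted p = 1.00), and Confite, at 0.73, was the only line on the positive side. The columns of Confite, Cacahuacintle and Arrocillo stand under both orders, so their sides in that reading were set by the use of the first label. The differences between lines did not pass the test (as deposited, 0.65 from the lowest to the highest, adjusted p = 0.158), which 0.0236% of probes passed. They passed when either W23 array was left out, which leaves 1 array of that line. The share of probes that passed in those fits is not given here, so this change is not read as one of asr1.

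Position on the array, taken here from the order in which spots were deposited and not from spot coordinates, moved with this value. The section of that order that carries asr1 had medians from -0.30 to 0.54 on the 9 solar arrays, against 0 for the whole array. With each of 16 sections centred on its own median, asr1 kept 8 of 9 arrays on the positive side and its mean was 0.31 (adjusted p = 0.00716), and W23 was then called beside Conico (0.33 and 0.64, adjusted p = 0.0343 and 0.0197). The channel term, called for 28.9% of probes, was 0.80 (adjusted p = 0.0209) with whole arrays centred and 0.21 (adjusted p = 0.217) with sections centred. If the ratio is read in channel order instead, the mean of asr1 was -0.25 and was not called (adjusted p = 0.563), as for every other probe of the comparison. Without the channel term it was 0.50 with an adjusted p of 0.126.

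In the supplemental comparison asr1 had no common side. The Conico arrays stood at -0.87 and 0.48 and the Confite arrays at -0.76 and 0.70, again with the more exposed RNA in channel 1 first. The single arrays were -0.63 in Arrocillo, -0.42 in Cacahuacintle, -0.35 in W23 and 1.09 in Mishca. The ratio thus changed side with the channel order in both lines that have both, and Mishca was the only line whose array lay on the positive side among the single ones.

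The mean of asr1 was -0.09 (SE 0.07, 95% confidence interval -0.24 to 0.06, n = 8 arrays; adjusted p = 0.362), and the channel term, called for 24% of probes, was -1.40 (adjusted p = 0.000551). With sections centred the mean changed side, to 0.05. Its side also followed the channel order given to the repeated columns, 0.38 (adjusted p = 0.00897) with that of the first label and -0.56 (adjusted p = 0.00123) with that of the second. Lines differed for asr1 (1.73 from lowest to highest, adjusted p = 0.00238), where 24.6% of all probes passed this test. In Mishca asr1 was called (adjusted p = 0.000358), as were 41.5% of all probes, but that line has 1 distinct array. The spread in every supplemental test comes from the 4 arrays of Confite and Conico, since each other line has 1 distinct array, so that a call in such a line has no replicate check. Without the Mishca array the difference was 0.60 (adjusted p = 0.492) and the mean was -0.33 (adjusted p = 0.0127).

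The titles give Cacahuacintle 3 arrays without UV-B, of which a pair carry the same number, and 1 with UV-B, so that a treatment label there is in doubt and the Cacahuacintle groups are given as labelled. Beside W23, asr1 lay on the negative side in the arrays of Arrocillo, Cacahuacintle and Conico. Without UV-B the Arrocillo arrays were -1.24 and -0.51, the Cacahuacintle arrays -1.06, -1.17 and 0.25, and the Conico arrays -0.77 and -0.01. With UV-B the Arrocillo arrays were -0.95 and -1.03, the Cacahuacintle array 0.19, and the Conico arrays -0.87 and -0.19. Within each group the arrays with landrace RNA in channel 1 come first, and all 6 of them were negative, between -1.24 and -0.77. Of the 6 with landrace RNA in channel 2, 4 were negative and both positive ones were of Cacahuacintle.

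The mean of asr1 over the 3 landraces was -0.58 (SE 0.09, 95% confidence interval -0.77 to -0.39, n = 12 arrays; adjusted p = 0.000343), a ratio of 1.50 between the sides. It was -0.49 with sections centred (adjusted p = 5.39e-05). Arrocillo had -0.93 and was called (adjusted p = 0.00147), where 8.2% of probes were called. Conico had -0.46 (adjusted p = 0.0888, where 5.32% of probes were called, or 0.00628 with sections centred) and Cacahuacintle -0.36 (adjusted p = 0.208, or -0.18 and 0.258 with sections centred), and the difference between landraces did not pass the test (adjusted p = 0.844), which 0.112% of probes passed. The ratio was -0.57 with UV-B and -0.60 without, a difference of 0.03 (95% confidence interval -0.35 to 0.42; adjusted p = 0.989), and 0% of probes were called for that difference by limma, with 257 of 5353 at an unadjusted p under 0.05. That difference rests on the labels of Cacahuacintle as they stand. It was 0.013 and -0.0013 without either of the pair of arrays that carry the same number, and -0.13 without the array labelled with UV-B. The channel term was -0.73 (adjusted p = 0.0196; 13.9% of probes were called), and read in channel order the mean of asr1 was 0.41 (adjusted p = 0.0177), on the opposite side.

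Beside Confite and Mishca, asr1 was measured on 5 of 7 arrays and was not tested. It was 0.12 in Confite without UV-B, -0.90 in Confite with UV-B and -0.26 in Mishca without UV-B. The pair of Mishca arrays with UV-B stood at 1.19 and -1.09, which is a span wider than that of the 12 arrays of the other landraces. On the array at -1.09, 44.2% of all spots were blank.

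**Figure D2:**
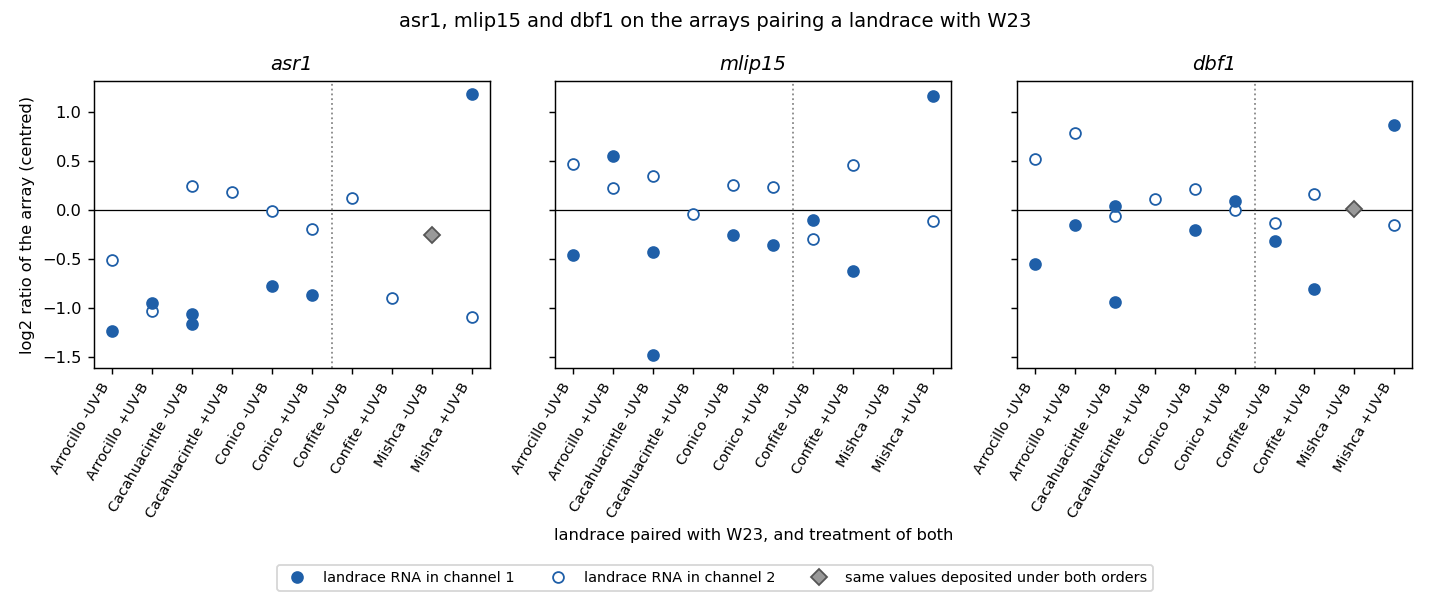
Centred log2 ratio (y axis) of asr1, mlip15 and dbf1 on each distinct array that pairs a landrace with W23, by landrace and treatment (x axis; -UV-B and +UV-B); filled circles have landrace RNA in channel 1, open circles in channel 2, the grey diamond is a column deposited under both orders, and the dotted line parts the smaller deposited table on the left from the larger on the right. On the left asr1 is negative on 10 of 12 arrays, while mlip15 is positive on 6 and dbf1 on 7.

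In the solar comparison the bZIP gene mlip15 was called in 1 line, W23. Both W23 arrays were negative and close together, at -0.76 and -0.72. In Conico the arrays were 0.15 and -0.15, and in Mishca -0.02 and -0.44. The single arrays were -0.06 in Arrocillo, 0.43 in Cacahuacintle and 0.29 in Confite, so that 3 of 9 arrays were positive.

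In W23 the fitted mlip15 ratio was -0.74 (SE 0.10, adjusted p = 0.0138; -0.59 with sections centred, adjusted p = 0.0132), where 23.8% of probes were called. Read in channel order it was 0.02 (adjusted p = 0.995) and the call was lost. None of the other lines was called, and the mean over lines was -0.05 (SE 0.05, 95% confidence interval -0.18 to 0.08; adjusted p = 0.486). W23 was not tested against the rest. The test of any difference between lines (limma, moderated F test), 1.17 from lowest to highest, gave an adjusted p of 0.0595. That value fell below the threshold when the left-out W23 column was kept (0.00303). It also did so when either W23 array or either Mishca array was left out, which leaves 1 array of the line. The share of probes that passed in those fits is not given here, so these changes are not read as ones of mlip15. Without the W23 array that has the sun-exposed RNA in channel 2, the mean of mlip15 was -0.08. It passed the threshold there, but that fit leaves 1 W23 array and called many more probes than the fit of all arrays. In the 3 lines with arrays of both orders alone, the mean was -0.32 (adjusted p = 0.0365), and with sections centred as well it was -0.20 and was not called (adjusted p = 0.0614).

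In the supplemental comparison, as deposited and with whole arrays centred, mlip15 was on the positive side in all 6 lines. The single arrays were 1.81 in Mishca, 0.71 in W23, 0.44 in Cacahuacintle and 0.19 in Arrocillo. The Conico arrays were 0.17 and 0.03 and the Confite arrays -0.41 and 0.58. On 7 of 8 arrays the ratio was positive, and the line values of Confite and Conico, at 0.08 and 0.10, were the lowest. With sections centred 6 of 8 arrays were positive and Confite was at -0.016. Read in channel order every line but Confite was on the negative side. For Arrocillo, Cacahuacintle, Mishca and W23 that side was set by the use of the first label of their columns.

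The mean of mlip15 was 0.56 (SE 0.09, 95% confidence interval 0.37 to 0.74, n = 8 arrays; adjusted p = 0.000362), a ratio of 1.47, and 0.41 with sections centred (adjusted p = 4.13e-05). On its 1 array Mishca was called (adjusted p = 2.37e-05), as were 41.5% of all probes. W23, also on 1 array, was not called with whole arrays centred (adjusted p = 0.154; 0.506% of probes were called) but was with sections centred (0.64, adjusted p = 0.0358). Without Mishca the mean was 0.30 and was still called (adjusted p = 0.0365), while the difference between lines went from an adjusted p of 0.00353 to 0.570. In the lines with both channel orders, Confite and Conico, the mean was 0.09 (adjusted p = 0.689).

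Beside W23, mlip15 had no common side in the landraces. On the 12 arrays of Arrocillo, Cacahuacintle and Conico it ran from -1.48, in Cacahuacintle without UV-B, through a median of 0.09 to 0.55, in Arrocillo with UV-B. Of the 6 arrays with landrace RNA in channel 1, 5 were negative, and of the 6 with it in channel 2, 5 were positive. The mean was -0.07 (SE 0.11, 95% confidence interval -0.32 to 0.17; adjusted p = 0.679). The channel term was -0.64 (adjusted p = 0.0780), and the difference with minus without UV-B was 0.13 (adjusted p = 0.979), or 0.026 and 0.17 without either of the pair of Cacahuacintle arrays that carry the same number. Beside Confite and Mishca it was measured on 6 of 7 arrays, at values from -0.62 to 1.16, and was not tested. The -0.62 came from the Confite array with 68.0% of its spots blank.

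The DRE-binding factor gene dbf1 lay on the negative side with solar UV-B. The W23 arrays were -1.53 and -0.21, the Mishca arrays -0.44 and -0.17, and the Conico arrays -0.25 and 0.33, with the sun-exposed RNA in channel 1 first. The single arrays were -0.76 in Confite, -0.50 in Arrocillo and -0.14 in Cacahuacintle. Only the second Conico array was positive, and in the 3 lines with both orders the channel 1 array was the lower, the reverse of asr1.

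The mean of dbf1 was -0.42 (SE 0.09, 95% confidence interval -0.64 to -0.21, n = 9 arrays; adjusted p = 0.0178), a ratio of 1.34 between the sides, and -0.32 with sections centred (adjusted p = 0.0301). W23, at -0.87, was the only line called (adjusted p = 0.0229), where 23.8% of all probes were called, and read in channel order it was 0.66 and was not called (adjusted p = 0.974). That value averages arrays that differ by 1.32, and the channel term of dbf1 was -0.73 (adjusted p = 0.0448). The difference between lines was 0.91 from lowest to highest (adjusted p = 0.158). It passed the test when either W23 array was left out, which leaves 1 array of that line, and the share of probes that passed then is not given here. Without a channel term the mean was not called (adjusted p = 0.156). Restricted to the 3 lines with both orders it was -0.38 (adjusted p = 0.0661). Read in channel order it was 0.16 (adjusted p = 0.756).

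With supplemental UV-B, as deposited, dbf1 lay on the other side of its ratio. The single arrays were 1.29 in Mishca, 0.81 in W23, 0.66 in Cacahuacintle and 0.15 in Arrocillo. The Conico arrays were 0.54 and 0.04 and the Confite arrays -0.36 and 0.10. On 7 of 8 arrays dbf1 was positive, and with sections centred on 6 of 8, with Arrocillo at -0.08 and Confite at -0.17. The share of probes below dbf1 was 99.1% in W23, 98.8% in Cacahuacintle, 96.0% in Mishca and 69.5% in Arrocillo, 88.7% and 55.6% in Conico, and 60.7% and 12.2% in Confite. The largest ratio, that of Mishca, was thus not the one that stood farthest out on its array. Read in channel order every line but Confite was on the negative side, and the mean was -0.49 (adjusted p = 0.0795). The sides of Arrocillo, Cacahuacintle, Mishca and W23 in that reading, and so this mean, rest on the use of the first label of their columns.

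The mean of dbf1 was 0.51 (SE 0.08, 95% confidence interval 0.33 to 0.69, n = 8 arrays; adjusted p = 0.000405), a ratio of 1.43, and 0.35 with sections centred (adjusted p = 9.84e-05). Mishca was called on its 1 array (adjusted p = 0.000293), as were 41.5% of all probes there, and with sections centred W23 was called too, likewise on 1 array (0.56, adjusted p = 0.0467). Without Mishca the mean was 0.36 (adjusted p = 0.0162), and the difference between lines, 1.42 with Mishca (adjusted p = 0.0112), had an adjusted p of 0.179. Confite and Conico alone gave a mean of 0.08 (adjusted p = 0.716). The channel term was 0.01 (adjusted p = 0.974). The solar and supplemental comparisons share the kind of leaf under solar UV-B, and whether they share its RNA is not given in the sources used here, so their opposite sides for dbf1 were not tested against each other.

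Beside W23, dbf1 was centred on 0. The 12 arrays of the smaller table ran from -0.94 to 0.79 with a median of 0.02, and the mean was -0.00 (SE 0.10, 95% confidence interval -0.22 to 0.21; adjusted p = 0.984). The 7 arrays with Confite or Mishca ran from -0.80 to 0.87, and the mean was -0.04 (95% confidence interval -0.38 to 0.30; adjusted p = 0.996), where 1.63% of 2089 tested probes were called. The difference with minus without UV-B was 0.15 (adjusted p = 0.969; 0.090 and 0.22 without either of the same pair of Cacahuacintle arrays) on the former arrays and 0.12 (adjusted p = 1.00) on the latter, where 0.0957% of probes were called for it. The -0.80 came from a Confite array with 68.0% of its spots blank, where the SD of the dbf1 spots was 0.25. The SE of the -0.04, 0.175, was also that of other probes, such as rca1 and ssu1, as moderation pooled the variance over probes.

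**Figure D3:**
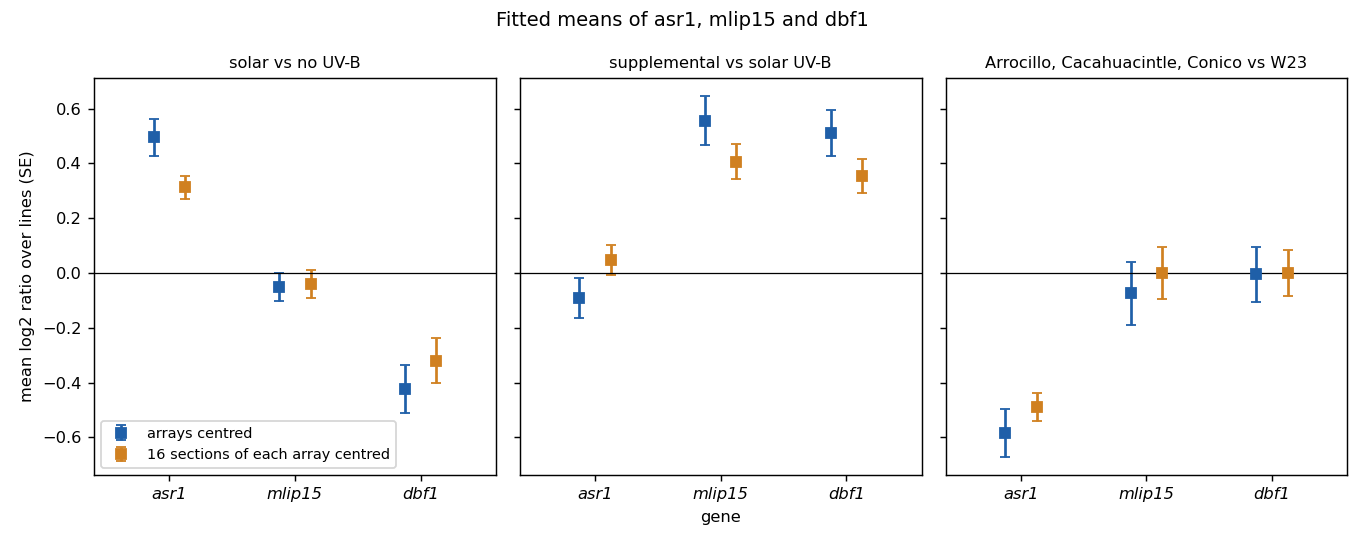
Mean log2 ratio over lines (y axis; bars are standard errors) of asr1, mlip15 and dbf1 (x axis) in the solar and supplemental comparisons and in Arrocillo, Cacahuacintle and Conico beside W23, with whole arrays centred (blue) and with 16 sections of each array centred (orange). The solar mean of asr1 was 0.50 and 0.31 by the respective methods, its supplemental mean changed side from -0.09 to 0.05, and the means of mlip15 and dbf1 with supplemental UV-B remained on the positive side.

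The 3 genes were also set against each other array by array. In the larger table mlip15 and dbf1 had Pearson's r of 0.78 and Spearman's rho of 0.69 over 23 arrays, with the same sign on 19 of them. Without the pair of arrays farthest from the median of mlip15, both of Mishca, r was 0.65. In the smaller table r was 0.72 and rho 0.43 over 12 arrays, with the same sign on 7 of them, and r was 0.24 without its farthest pair. The gene asr1 did not follow dbf1, with r of -0.03 over 22 arrays of the larger table and 0.26 in the smaller, and its r with mlip15 was 0.34 and 0.48. These values are descriptions and carry no p, since arrays share RNA, lines, channel order and position effects.

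**Figure D4:**
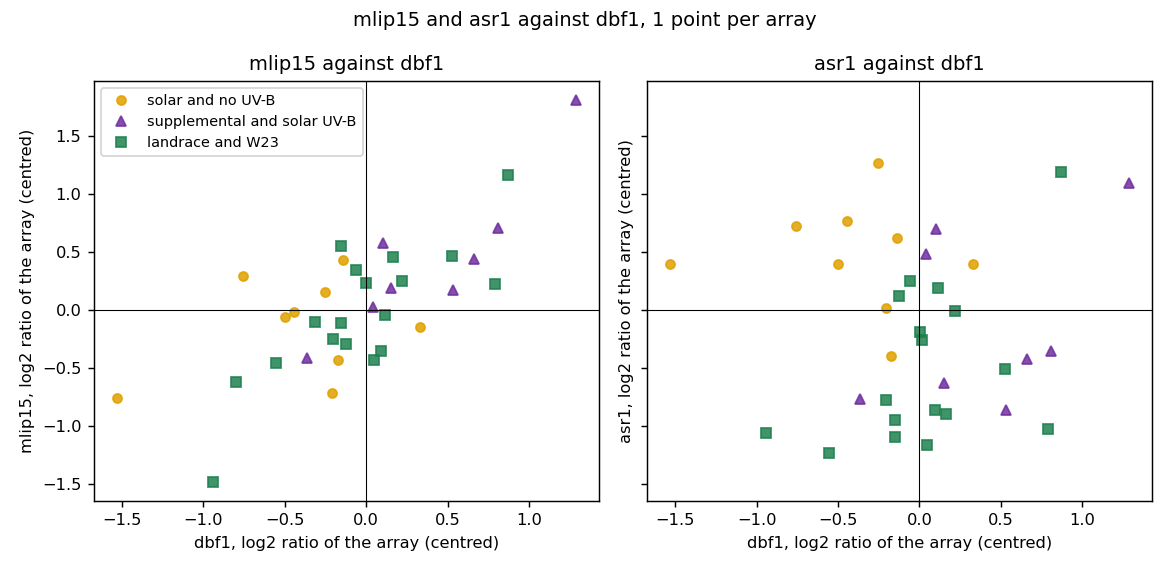
Centred log2 ratios of mlip15 (left) and asr1 (right) against that of dbf1 (x axis), 1 point per distinct array of either table, coloured by comparison. The mlip15 points of the larger table run along the diagonal, with r of 0.78, and the asr1 points show no such line. In the smaller table r of mlip15 and dbf1 was 0.72, or 0.24 without the pair of arrays farthest from the median of mlip15.

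By the same measure, the named genes most like each gene were found. In the larger table those nearest asr1 were aos1, an allene oxide synthase gene of jasmonate synthesis, the profilin gene LOC542625, both at r = 0.87, and ys1, the iron-phytosiderophore transporter gene, at 0.87. With sections centred these were 0.53, 0.47 and 0.75. Nearest mlip15 were cystatin3 (0.96), the sucrose synthase gene sus2 (0.94) and the glutathione synthesis gene gsh2 (0.93), which were 0.86, 0.90 and 0.89 with sections centred. Nearest dbf1 were the aquaporin gene PIP1-3 (0.94), the asparagine synthetase gene asn1 (0.94) and LOC541988 (0.92), and these were 0.94, 0.97 and 0.92 with sections centred. Among 360 named probes, mlip15 ranked 18 in likeness to dbf1, and in the smaller table it ranked 39 among 378.

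The genes nearest in the smaller table were other ones. Those of asr1 were LOC542748 (0.89), the chlorophyll a/b-binding protein gene Cab-m7 (0.85) and AGA1 (0.85), over 12 arrays, and with sections centred these were 0.47, 0.85 and 0.63. Those of mlip15 were LOC542494 (0.94), the cystatin gene psei1 (0.93) and qsox1 (0.93), or 0.76, 0.85 and 0.94 with sections centred. Those of dbf1 were the MADS-box gene Silky1 (0.94), ltk1 (0.94 over 11 arrays) and crp1 (0.92), or 0.90, 0.92 and 0.92.

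Other genes of drought, cold and abscisic acid responses were read from a list of names, of which 16 genes with 20 probes were on the arrays. The dehydrins, LEA proteins and further DRE-binding factors on that list matched no probe with a gene name, and so were not analysed here. With solar UV-B 15 probes were tested, 2 were called positive and 4 negative, where 16.9% and 18.1% of all probes were called on these sides, and the median was -0.06 beside 0.01 for all probes. The aquaporin gene pip1-2 had 0.52 (adjusted p = 0.00825) and the superoxide dismutase gene Sod4A 0.22 (adjusted p = 0.0195), on the side of asr1. On the side of dbf1 were PIP1-3 at -0.37 (adjusted p = 0.0106), the alcohol dehydrogenase gene adh1 at -0.21 (adjusted p = 0.0429), the ferritin gene fer1 at -0.15 (adjusted p = 0.0264, or 0.221 with sections centred) and 1 of 2 probes of globulin-1, a seed storage protein gene, at -0.46 (adjusted p = 0.0055). The protein kinase genes cdpk1, CDPK2 and MPK5, between -0.06 and 0.08, and the phosphatase gene PP2C, at 0.12, were not called.

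In the supplemental comparison 17 probes were tested, with 3 called on each side, where 31.7% of all probes were called, and a median of 0.01 beside -0.01 for all probes. The means of PIP1-3, at 0.38 (adjusted p = 0.00147), and Sod4A, at 0.26 (adjusted p = 0.0140), were positive like those of mlip15 and dbf1. So was that of MPK5, a mitogen-activated protein kinase gene, at 0.21 (adjusted p = 0.0408). By line, PIP1-3 was positive in only 3 of 6, and Sod4A and MPK5 in all 6. On the negative side were the heat shock protein gene hsp101 at -0.35 (adjusted p = 0.00209), the bZIP gene GBF1 at -0.28 (adjusted p = 0.0111) and the calcium-dependent protein kinase gene CDPK2 at -0.25 (adjusted p = 0.0171). Of these, hsp101 was positive in 3 of 6 lines. With sections centred MPK5 and CDPK2 were not called (adjusted p = 0.463 for each). The means of PIP1-3 and dbf1 had the same side in both UV-B comparisons, negative and then positive, while that of Sod4A was positive in both.

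For the same 3 landraces beside W23, 18 probes were tested, 4 were called positive and 5 negative, where 25.6% of all probes were called and 12.1% on the negative side, and the median was 0.00 beside -0.01 for all probes. With asr1 on the negative side were the invertase gene ivr2 (-0.99, adjusted p = 3.46e-07), the catalase gene cat1 (-0.41, adjusted p = 0.00302), fer1 (-0.39, adjusted p = 0.00224), Sod4A (-0.34, adjusted p = 0.00183) and a probe of globulin-1 (-0.31, adjusted p = 0.00254). On the positive side were hsp101 (0.58, adjusted p = 6.93e-05), a probe of adh1 (0.32, adjusted p = 0.00161) and the other probes of ivr2 (0.51) and globulin-1 (0.48). The other adh1 probe, at 0.03, was not called (adjusted p = 0.812). Probes of ivr2 and globulin-1 thus lay on opposite sides within a gene. Of 5 further genes added after the gene names on the arrays were seen, ohp2, a bZIP gene, was called in the supplemental comparison (-0.32, adjusted p = 0.00861), and no other call was made among them in these 3 fits.

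**Figure D5:**
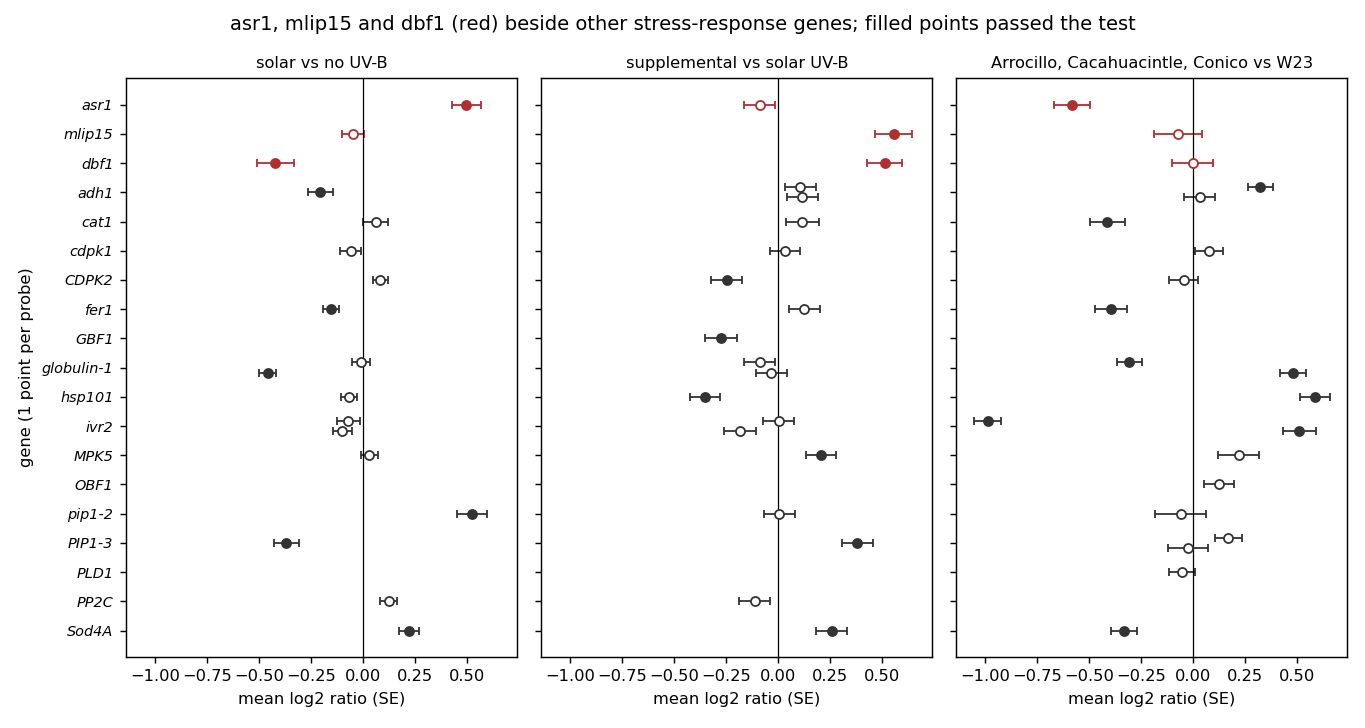
Mean log2 ratio (x axis; bars are standard errors) of asr1, mlip15 and dbf1 (red) and of the probes of other drought, cold and abscisic acid genes (black, y axis) in the solar and supplemental comparisons and in Arrocillo, Cacahuacintle and Conico beside W23; filled points had an adjusted p under 0.05. In the solar panel pip1-2 lies at 0.52 beside asr1 at 0.50, and in the landrace panel a probe of ivr2 lies at -0.99, beyond asr1 at -0.58.

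Markers of other cell types and of leaf cells were read as well. With solar UV-B 3 of 4 probes of mesophyll genes were called on the positive side, where 16.9% of all probes were, lhcb5 at 0.45, pdk1 at 0.30 and 1 probe of Cab-m7 at 0.30. Neither bundle sheath gene was called (ssu1 at 0.08, rca1 at -0.05), though ssu1 was with sections centred (0.10, adjusted p = 0.0469). On the negative side, where 18.1% of all probes were called, were 1 of 3 seed probes and the 1 tested pollen probe. These were the globulin-1 probe given above and EXPB9 at -0.34 (adjusted p = 0.0121).

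In the supplemental comparison 31.7% of all probes were called. Of the markers, 0 of 4 mesophyll and 0 of 2 bundle sheath probes were called by limma with whole arrays centred, and at an unadjusted p under 0.05 there were 1 and 0. With sections centred pdk1 (-0.18, adjusted p = 0.0240) and ssu1 (-0.26, adjusted p = 0.00345) were called on the negative side. Of 5 seed probes, 1 of Globulin-2 was positive (0.29, adjusted p = 0.0139, also called with sections centred), and sh2 was called with sections centred only (0.15, adjusted p = 0.0388). Of the pair of tested EXPB9 probes, 1 was positive (0.28, adjusted p = 0.0144) and lost its call with sections centred (adjusted p = 0.0835), where the other was called on the opposite side (-0.23, adjusted p = 0.00266).

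Beside W23, in the arrays of Arrocillo, Cacahuacintle and Conico, 25.6% of all probes were called. Of 4 mesophyll probes 1 was called, lhcb5 at -0.80 (adjusted p = 3.52e-05), while pdk1 lay on the other side at 0.28 (adjusted p = 0.0611, or 0.0327 with sections centred). The probes of Cab-m7, at -0.08 and -0.23, were not called, but the latter was with sections centred (-0.15, adjusted p = 0.0432). Of the bundle sheath genes rca1 was called at 0.52 (adjusted p = 9.03e-05) and ssu1, at 0.08, was not. Of 5 seed probes 4 were called, sh2 at 0.47, a probe of Globulin-2 at 0.24 (adjusted p = 0.0281, or 0.0789 with sections centred) and those of globulin-1 at 0.48 and -0.31, and 0 of 3 pollen probes were called by limma, with 0 at an unadjusted p under 0.05. Mesophyll and seed markers thus lay on both sides in these landraces. Their part in the values of asr1, mlip15 and dbf1 was not tested, and the arrays hold no level at which a marker could be read as absent.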

How the data were processed

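Genes and lists were chosen with earlier results of these data known. Per the labels, total RNA of maize leaves was hybridised in 2 channels. The 2 deposited tables hold log2 ratios per spot (33 and 12 columns, 16928 and 17296 spots). The design text of the series describes the authors' analysis of variance on log2 intensities. Whether the deposited log2 ratios passed through it is not given in the sources used here. Depth does not apply to arrays, and the number of arrays limits precision.

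Blank spots were missing. Probes measured on at least 75% of arrays and once in each group were fitted per comparison, within a table, with limma 3.58.1 in R 4.3.3 and two-sided tests, each from the arrays on which the probe was measured. Asr1 and mlip15 failed this filter beside Confite and Mishca. Repeated columns had channel code 0. Residual degrees of freedom were 2 (solar), 1 (supplemental), 5 (Arrocillo, Cacahuacintle and Conico) and 2 (Confite and Mishca). The moderated variance of a probe thus drew largely on all probes, most of all in the supplemental and the Confite and Mishca fits. The fit was tested on simulated data. In the solar comparison the replicate number coincides with channel order, and same-numbered arrays deviated together (r from 0.48 to 0.88), so the channel term is the replicate block there.

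Named genes are the 3 members, the 3 named probes most correlated with each, a list of drought, cold and abscisic acid genes, and leaf, seed and pollen markers, whatever their values. Names come from an old platform annotation and, for 314 of 329 genes, a RefSeq table (Zm-B73-REFERENCE-NAM-5.0). A cDNA probe can also bind close family members, so values of a gene may include its relatives. Alternatives covered centring, scaling, array sections, channel term, filters, spot medians, moderation, ratio direction, repeated columns, and each array left out. Percentages of all probes called are those of the main fits, not of the alternatives.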

Additional observations from a re-analysis of the deposited data

Results flagged for a closer look

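The difference between lines in the supplemental UV-B comparison passed the test for all 3 genes, with an adjusted p (limma, moderated F test) of 0.00238 for asr1, 0.00353 for mlip15 and 0.0112 for dbf1, where 24.6% of all probes passed it. With ratios as deposited, Mishca, which has 1 distinct array, was the highest of the 6 lines in each case, at 1.09, 1.81 and 1.29. Read in channel order it was the lowest, at -1.09, -1.81 and -1.29. Its values were deposited unchanged under both orders, so its side in that reading was set by the use of the first label. Without it none of the 3 differences passed (adjusted p = 0.492, 0.570 and 0.179).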

How the results depend on the processing

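Of 355 values under alternatives other than leaving out an array, 277 kept their direction and side of the threshold, or, for counts, stayed within 1.5 times, and 24 changed side; of 251 with an array left out, 206 did and 20 changed side. The causes were not tested. The supplemental tests have 1 residual degree of freedom, so leaving out a Confite or Conico array left values only. Without the channel term the solar means of asr1 (0.50, adjusted p = 0.126) and dbf1 (-0.42, 0.156) and the supplemental means of mlip15 (0.56, 0.183) and dbf1 (0.51, 0.183) lost their calls, as did the supplemental line differences of 1.73 (asr1), 1.73 (mlip15) and 1.42 (dbf1), each with an adjusted p of 1.00. Probes called fell to 11 (solar), 0 (supplemental), 885 (3-landrace set, Arrocillo, Cacahuacintle and Conico) and 9 (Confite and Mishca), and the landrace mean of dbf1 was 0.026. Without moderation the same means of 0.50, -0.42, 0.56 and 0.51 had an adjusted p of 0.160, 0.214, 0.463 and 0.461, the same line differences 0.670, 0.744 and 0.749, and 2, 0, 892 and 0 probes were called. Both counts of 0 without moderation, from the plain linear model, stood beside 427 and 103 probes at an unadjusted p under 0.05, and that of limma without the channel term beside 824.

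Read in channel order, the solar means were -0.25 (asr1) and 0.16 (dbf1), the supplemental means 0.29, -0.45 and -0.49 (asr1, mlip15, dbf1), the 3-landrace means 0.41, 0.26 and 0.26, their differences with minus without UV-B -0.083, -0.46 and -0.17, and for dbf1 beside Confite and Mishca 0.019 and -0.068. Probes called by limma were then 0, 0 and 4 in the solar, supplemental, and Confite and Mishca fits, with 379 and 1301 solar and supplemental probes at an unadjusted p under 0.05, and the supplemental line differences of 1.82, 2.31 and 1.52 were not called. Scaling to equal spread gave supplemental line differences of 1.20, 0.96 and 1.11, none called (adjusted p = 0.172, 0.295 and 0.215), 879 supplemental probes, a solar line difference of mlip15 of 1.13 (adjusted p = 0.0473), and landrace values of -0.023 (asr1, UV-B difference) and 0.012 (dbf1, mean). Without centring the solar mean of mlip15 was 0.027 and 652 solar probes were called. Centring sections turned the supplemental mean of asr1 to 0.048 and the landrace means of mlip15 and dbf1 to 0.0014 each, and left 0 probes called by limma beside Confite and Mishca, with 168 at an unadjusted p under 0.05. Spot medians turned the landrace mean of dbf1 to 0.0020, and probes measured on every array gave 5 calls beside Confite and Mishca.

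Counting repeated columns as arrays gave a solar line difference of mlip15 of 1.17 (adjusted p = 0.00552), a supplemental line difference of asr1 of 1.73 (adjusted p = 0.0913), 2814 supplemental probes and 120 beside Confite and Mishca. The order of the second label gave 1.28 for the solar line difference of mlip15 (adjusted p = 0.0400) and -0.56 for the supplemental mean of asr1, and that of the first label 0.38. In lines with both orders the solar means were -0.32 (mlip15, called) and -0.38 (dbf1, not called) with 653 probes called, and with sections centred too that of mlip15 was -0.20 (adjusted p = 0.0614). The supplemental means were then 0.091 (mlip15) and 0.080 (dbf1), the line differences 0.16, 0.018 and 0.42, and 184 probes were called. With the third W23 column kept, the solar line differences of asr1 (0.74, adjusted p = 0.0385) and mlip15 (1.21, 0.00303) were called.

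With the replicate number as a block in place of the channel term, the solar and supplemental values did not change, since the number coincides with channel order there. In the 3-landrace set the block left 582 probes called against 1368, the mean of asr1 was -0.81 (adjusted p = 0.00174) and kept its call, the UV-B difference of asr1 was -0.0013 and the mean of dbf1 0.12, and no other call of the 3 genes changed. Same-numbered arrays there correlated from -0.11 to 0.75, so the numbers were not taken to pair them.

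Leaving out 1 array at a time, the solar means ranged from 0.44 to 0.55 (asr1), -0.15 to -0.016 (mlip15) and -0.50 to -0.35 (dbf1), the line differences from 0.60 to 0.94, 0.97 to 1.38 and 0.80 to 1.36, and the probes called from 809 (without the first Conico array) to 2567 (without the first W23 array), with 814 without the second Conico, 897 without the Confite and 2437 without the second W23 array. The supplemental means ranged from -0.33 to 0.018 (without Arrocillo), 0.30 to 0.65 and 0.36 to 0.59, the line differences from 0.60 to 1.73, 0.63 to 1.73 and 0.94 to 1.42, and the probes from 733 (without Mishca) to 1485. The 3-landrace means ranged from -0.68 to -0.51, -0.19 to 0.013 and -0.077 to 0.059, and the UV-B differences from -0.17 to 0.17, -0.12 to 0.28 and -0.013 to 0.29. Beside Confite and Mishca the mean of dbf1 ranged from -0.24 to 0.16, its UV-B difference from -0.28 to 0.52, and the probes called, 34 with every array, from 6 to 58: 55 and 58 without either Mishca array with UV-B, and 6, 11, 14 and 12 without each Confite array.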
